A study of Mus musculus with 8 samples.

Results

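Small nucleolar RNA (snoRNA) host transcripts were followed through 8 non-coding genes, Gas5, Snhg1, Snhg3, Snhg5, Snhg6, Snhg8, Snhg12 and Snhg15, in CD8+ T cells of melanoma-bearing mice. The genes were taken by name from a table of 47493 gene entries. A match of the gene name found 7 of them. Snhg15 carries an older model name in the table (Gm11974) and was found by its gene identifier, ENSMUSG00000085156. All 8 members were above the filter of a mean of 1 FPKM over the libraries (FPKM, the fragments of a gene corrected for the length of its transcripts and the size of the library). All 8 passed the test as lower in IL-18Rα-hi-enriched cells than in the cells left behind, where 13.7% of all genes tested did, and stood at 45.2% to 71.9% of the flow-through mean.

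The cells came from 4 female C57BL/6 mice of 6 to 8 weeks that were inoculated with 200000 B16F10 melanoma cells on day 0. Every mouse then received 300 mg/kg cyclophosphamide on day 3, 2000000 Thy1.1 Pmel-1 T cells (transgenic for a receptor specific for a melanoma antigen) on day 5, 10000 IU IL-2 a day for 3 days, and 200 μg of the anti-CD4 antibody GK1.5 on days 10, 17 and 24. On day 25, CD8+ T cells without Thy1.1, the endogenous ones, were isolated from inguinal lymph nodes and spleen, and those bound by an IL-18Rα antibody were held on a magnetic column (IL-18Rα-hi, 4 libraries). The cells that passed the column were the control (flow-through, 4 libraries), so each mouse gave a pair of libraries, both from treated animals, and the fractions are enriched rather than pure. Libraries of one number are taken here as those of one mouse, which the labels do not state.

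A snoRNA host gene is transcribed and spliced like any other, but its useful product often lies in the introns. The excised introns are trimmed to snoRNAs, which guide the chemical modification and cleavage of ribosomal RNA: box C/D snoRNAs direct 2′-O-methylation and box H/ACA snoRNAs direct pseudouridylation. The spliced exons of many hosts code for little or no protein and are removed by nonsense-mediated decay when they are translated. Many hosts begin with a 5′ terminal oligopyrimidine (TOP) tract, a C followed by pyrimidines, as the messenger RNAs of ribosomal proteins do, and such genes are known to follow the growth state of the cell. Poly(A)-selected libraries report the spliced host and not the mature snoRNA, which is short and has no poly(A) tail.

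In the GENCODE M21 annotation of GRCm38 (mm10), the 8 members held 28 snoRNA loci, and all 28 lay in introns. Gas5 (chr1:161034422-161038539, plus strand) had 9 loci and Snhg1 (chr19:8723475-8726443, plus strand) had 8. Those with a name were of the box C/D class, Snord47, Snord78 and Snord80 in Gas5 and Snord22 in Snhg1. Snhg5 (chr9:88521050-88522929, minus strand) held Snord50a and Snord50b, and Snhg6 (chr1:9941959-9944118, minus strand) held Snord87. The H/ACA hosts were Snhg3 (chr4:132348014-132353686, minus strand) with Snora73a and Snora73b, Snhg8 (chr3:123507552-123508404, minus strand) with Snora24, and Snhg15 (chr11:6525591-6528760, minus strand) with Snora9. Snhg12 (chr4:132308623-132311024, plus strand) held both classes, Snora16a, Snora44, Snora61 and Snord99. Of the 30 snoRNA entries inside the members, 28 were listed at 0 in all 8 libraries, as were 1492 of the 1504 annotated snoRNA genes that had an entry.

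The first 25 bases of an annotated transcript of each member are shown because a TOP tract stands at the very start of the RNA. Capitals mark a C at position 1 with every pyrimidine that follows without a break, where at least 4 do, and where a gene had a transcript with such a tract, one of these is shown. The tract was annotated in a minority of the transcripts of each gene, in 5 of 25 for Gas5, 3 of 10 for Snhg12, 1 of 5 for Snhg3 and for Snhg6, 1 of 6 for Snhg5 and 1 of 3 for Snhg8. The sequences are those of GENCODE M21.
Gas5: CTTTCggagctgtgcggcattctga
Snhg12: CCTTTCTCgcttcatccgcggtccc
Snhg6: CTTTCTCggcagcgccgtagagcgc
Snhg3: CTCTCTaggcgtcgctctcttggtg
Snhg5: CTTTTacgacggagcctaagatatt
Snhg8: CCCTCgcgcgcaggctcttgggaga
Snhg1: ctcatttttccttgttcggggtaag
Snhg15: ctcaaacctttaattgtacttcttt
Such a start was found in at least 1 transcript of 6 of the 8 members. The same was so for 34 of 76 cytosolic ribosomal proteins (44.7%) and for 1263 of 12123 tested genes with an annotated transcript (10.4%). A gene with more annotated transcripts had more chances of such a start, and the shares were not adjusted for this. Snhg1 and Snhg15 had no such annotated start. The tract was a description of annotated ends, which were not mapped in these cells.

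The stretch before the start was read from RefSeq promoters of GRCm38.p6, which held 7 of the 8 members. Snhg6 was not among them. The window from 50 bases before to 30 bases after the RefSeq start is shown for the 3 members with TATAA or TATAT wholly between 40 and 20 bases before it, with the word in capitals.
Gas5, chr1:161035116-161035195, plus strand: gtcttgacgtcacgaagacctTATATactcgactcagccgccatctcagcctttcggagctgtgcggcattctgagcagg
Snhg12, chr4:132308628-132308707, plus strand: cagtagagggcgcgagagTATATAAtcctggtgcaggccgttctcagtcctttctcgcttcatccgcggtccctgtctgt
Snhg8, chr3:123508307-123508386, minus strand: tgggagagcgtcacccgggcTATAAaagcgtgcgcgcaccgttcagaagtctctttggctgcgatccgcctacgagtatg
RefSeq starts were not always those of the transcripts shown above. The Snhg8 transcript shown starts 68 bases before the RefSeq start, so that this TATAA lies inside it, and the TATAA of Snhg5 begins 23 bases before its RefSeq start and 32 bases before the start shown. Gas5 has a second RefSeq promoter (chr1:161034551-161034630 for the same window), which holds neither word there. On the sense strand such a word lay in that stretch in these 3 of 7 members, in 6 of 57 ribosomal protein genes (10.5%) and in 5.19% of 27025 genes. Over the whole 300 bases of a promoter and on both strands, TATAA was found in 6 of 7 members, 28.1% of ribosomal protein genes and 28.0% of all genes. The cyclic AMP response word TGACGTCA was found in Gas5 and Snhg15, in 8.77% of ribosomal protein genes and in 2.03% of all genes. The E-box CACGTG was found in Snhg15, in 10.5% of ribosomal protein genes and in 8.09% of all genes. GGGCGG was found in 5 of 7 members, 61.4% of ribosomal protein genes and 38.2% of all genes. CCAAT was found in 3 of 7, 31.6% and 41.1%, and TATAT in 3 of 7, 14.0% and 22.3%, in the same order. TATAA and TATAT can overlap. The words were chosen after the sequences had been seen, and a match is a run of letters and not a measured site.

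The guides that the introns carry are shown for 3 hosts. In Snord47 (Gas5) and in Snord50a and Snord50b (Snhg5), capitals mark box C (the first TGATGA) and box D (the last CTGA). In Snora73a and Snora73b (Snhg3), a guide of early ribosomal RNA cleavage, they mark the last ACA. Snord50a and Snord50b differed at 1 of 72 positions, and Snora73a and Snora73b at 7 of 205.
Snord47, chr1:161038082-161038158, plus strand: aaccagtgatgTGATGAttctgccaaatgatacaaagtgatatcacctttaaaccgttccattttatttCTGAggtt
Snord50a, chr9:88521529-88521600, minus strand: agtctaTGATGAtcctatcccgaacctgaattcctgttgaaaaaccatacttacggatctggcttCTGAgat
Snord50b, chr9:88521797-88521868, minus strand: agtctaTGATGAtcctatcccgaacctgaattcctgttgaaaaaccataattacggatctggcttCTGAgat
Snora73a, chr4:132352775-132352979, minus strand: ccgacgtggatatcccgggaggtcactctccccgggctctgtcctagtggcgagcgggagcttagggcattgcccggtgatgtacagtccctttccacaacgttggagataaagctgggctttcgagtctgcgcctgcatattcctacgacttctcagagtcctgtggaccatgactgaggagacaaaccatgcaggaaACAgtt
Snora73b, chr4:132352322-132352526, minus strand: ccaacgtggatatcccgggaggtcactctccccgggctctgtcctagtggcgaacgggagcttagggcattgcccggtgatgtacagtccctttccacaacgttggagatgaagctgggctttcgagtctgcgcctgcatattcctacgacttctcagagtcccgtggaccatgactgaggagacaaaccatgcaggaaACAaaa

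Il18r1, the gene of the sorted receptor, was between 22.2 and 37.2 FPKM in the flow-through and between 106.6 and 116.0 FPKM in the IL-18Rα-hi libraries, as the labels have it. Cd8a was at 179.2 FPKM in flow-through replicate 1 and between 297 and 385 FPKM in the other 7 libraries, and the summed level of 8 CD8 T-cell markers was 1436 FPKM in that library against 2266 to 2906 FPKM elsewhere. Erythroid marker genes summed to 1181 to 3908 FPKM in the flow-through, with the highest value in the same replicate 1, and to 325.3 to 1946 FPKM in the IL-18Rα-hi libraries. NK-cell markers summed to 91.6 to 261.3 FPKM and to 241.9 to 504.0 FPKM, and myeloid markers to 541.3 to 2251 FPKM and to 974.4 to 3361 FPKM, respectively. Over each whole list, 5 of 7 tested NK-cell markers, 5 of 11 myeloid markers and both CD4 T-cell markers were higher in IL-18Rα-hi cells, and 2 of 11 erythroid markers were lower. Over all genes tested, 14.1% were higher and 13.7% lower, and the erythroid count, at 18.2%, lay near that share. With the replicate block, 8 of 11 myeloid markers were higher and 8 of 11 erythroid markers lower. Of all 12166 genes tested, 2705 were higher and 22.7% lower with the block. All 11 erythroid markers had a negative sign, and their median log2 fold change was -0.85, beside -0.87 for the members. With 1 library left out and no block, the myeloid and erythroid counts ran from 2 to 5 and from 1 to 4. The B-cell markers Pax5 and Ebf1 and the NK-cell marker Klra4 were under 1 FPKM on average. Of the melanoma markers, Dct, Mlana, Tyr and Tyrp1 stood at 0 in every library. The remaining one, Pmel, was at 0.34 to 0.84 FPKM in the flow-through and 0.41 to 0.55 FPKM in IL-18Rα-hi cells. The part of these other cells in the host transcript values was not tested, and in bulk RNA fewer cells of a type and less RNA per cell cannot be told apart.

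**Figure D1:**
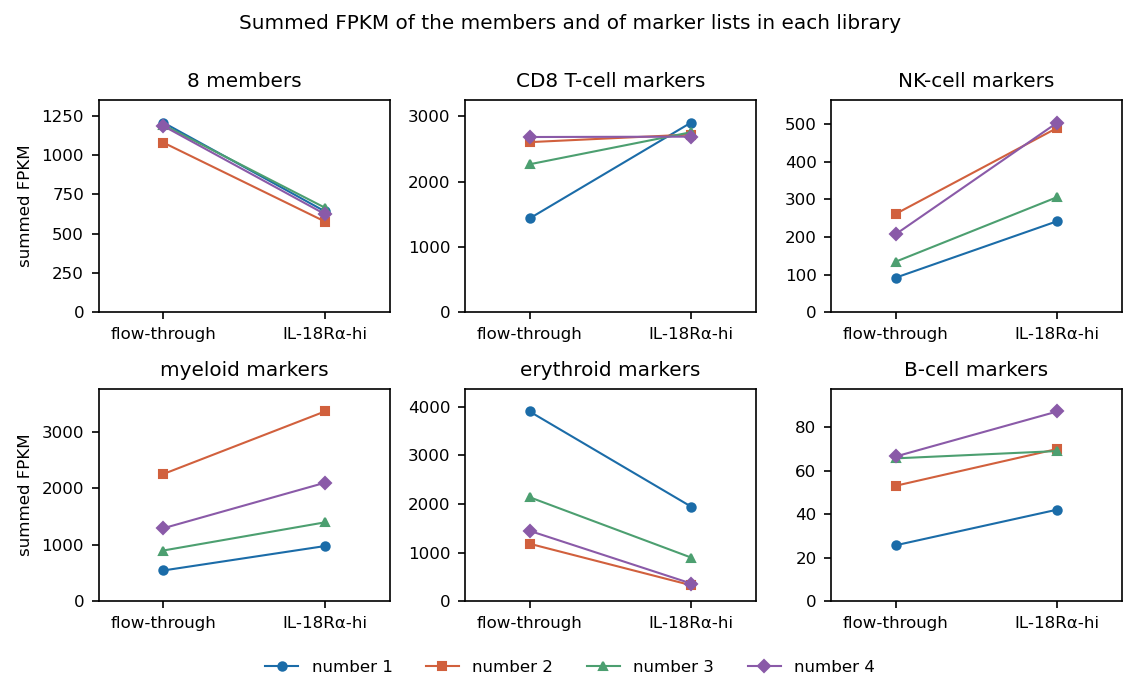
Summed FPKM of the 8 members and of 5 marker lists in each library, flow-through at left and IL-18Rα-hi at right, with libraries of one number joined. The member sum was lower in IL-18Rα-hi cells in each of the 4 pairs, as was the erythroid sum, while NK-cell and myeloid sums were higher in each, and flow-through replicate 1 had the lowest CD8 T-cell sum of 1436 FPKM.

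Summed over the 8 members, the host transcripts made up 1080 to 1208 FPKM in the flow-through libraries and 577.1 to 665.2 FPKM in the IL-18Rα-hi libraries. These sums were 0.152% to 0.184% and 0.0824% to 0.101% of all FPKM in a library, and the groups did not overlap. Gas5 alone gave 42.5% to 47.6% of the member sum in the flow-through and 40.5% to 43.6% in IL-18Rα-hi cells. The order of the levels, which FPKM states per length, began with Gas5 and then Snhg1 in both fractions, and neither overlapped the next gene. In the flow-through, Snhg8, Snhg5, Snhg12 and Snhg6 followed, each overlapping the next in the order, and Snhg15 and Snhg3 were last and overlapped each other. In IL-18Rα-hi cells, Snhg12 stood below Snhg6, with 39.2 to 45.7 FPKM against 53.9 to 60.5 FPKM, whereas in the flow-through their ranges overlapped.

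**Figure D2:**
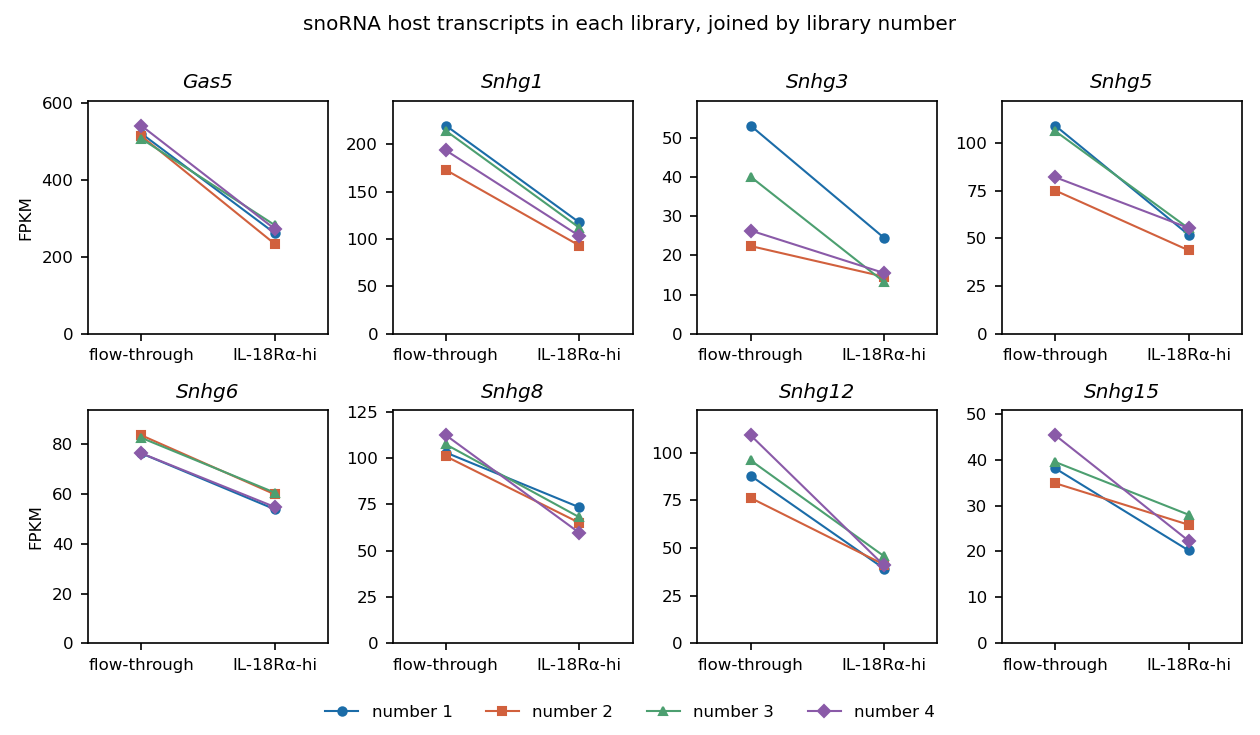
FPKM of each member in the 8 libraries, flow-through at left and IL-18Rα-hi at right, with libraries of one number joined and each axis starting at 0. All 32 lines slope down, and the groups overlap for Snhg3 alone, where IL-18Rα-hi replicate 1 lies above flow-through replicate 2.

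Gas5, whose spliced RNA accumulates when growth stops and can bind the glucocorticoid receptor as a decoy, was the most abundant member. Its values were 520.4, 514.0, 506.9 and 540.8 FPKM in flow-through replicates 1 to 4 and 261.4, 233.6, 282.5 and 272.4 FPKM in IL-18Rα-hi replicates 1 to 4. The coefficient of variation of the flow-through libraries was 2.80%, and every IL-18Rα-hi library was below all of them. Gas5 fell by 0.99 ± 0.08 on the log2 scale (SE, n = 4 per fraction; 95% interval of the fold change -1.16 to -0.81; limma adjusted p = 0.000287), and within a mouse the IL-18Rα-hi level was 45.5% to 55.7% of the flow-through level. Only 298 of the 12166 genes tested had a larger fall. Zbtb37, which overlaps the 5′ end of Gas5 by 428 bases on the other strand, was at 1.80 to 3.47 FPKM in the flow-through and 2.002 to 2.39 FPKM in IL-18Rα-hi cells (log2 fold change -0.066, limma adjusted p = 0.775).

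Snhg1, the other host with many box C/D guides, was measured at 219.7, 172.9, 214.2 and 193.5 FPKM in the flow-through and at 117.5, 93.1, 111.9 and 103.3 FPKM in IL-18Rα-hi cells. The groups did not overlap, and the library of number 2 was the lowest of both groups. The fall was nearly the same in each mouse, to between 52.3% and 53.9% of the flow-through level (log2 fold change -0.90 ± 0.11, SE; 95% interval -1.14 to -0.66; limma adjusted p = 0.00125). Slc3a2, the heavy chain of amino acid transporters, starts 106 bases away on the other strand. It was at 93.9 to 111.7 FPKM in the flow-through and 81.5 to 102.9 FPKM in IL-18Rα-hi cells, with overlapping groups and a log2 fold change of -0.16 (95% interval -0.38 to 0.06; limma adjusted p = 0.251).

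The smaller box C/D hosts were Snhg5 and Snhg6. Snhg5, whose RNA is known to protect targets of the decay factor STAU1, was at 109.2, 75.2, 106.3 and 82.1 FPKM in the flow-through and at 51.9, 43.8, 55.3 and 55.5 FPKM in IL-18Rα-hi cells. Its flow-through libraries varied more than those of Gas5, but none came down to the IL-18Rα-hi range. Its fold change on the log2 scale was -0.83 ± 0.14 (SE), with a limma adjusted p of 0.0047. Snhg6 was at 76.3, 83.6, 82.5 and 76.3 FPKM in the flow-through and at 53.9, 59.9, 60.5 and 54.8 FPKM in IL-18Rα-hi cells. The 2 groups of Snhg6 were tight and separate, and within a mouse the level was 70.6% to 73.4% of the flow-through. At -0.47 ± 0.07 on the log2 scale (SE; limma adjusted p = 0.00326), Snhg6 had the smallest fall of the members. Mcmdc2, which overlaps its 3′ end by 127 bases on the other strand, was under 0.3 FPKM in all libraries.

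Among the H/ACA hosts, Snhg8 fell with the least spread. It was at 102.9, 100.8, 107.3 and 112.2 FPKM in the flow-through and at 73.4, 65.0, 68.0 and 59.6 FPKM in IL-18Rα-hi cells, with no overlap, and the difference on the log2 scale was -0.66 ± 0.08 (SE; limma adjusted p = 0.00149). Snhg15 was at 38.1, 34.9, 39.5 and 45.3 FPKM in the flow-through and at 20.2, 25.8, 28.0 and 22.3 FPKM in IL-18Rα-hi cells. The groups of Snhg15 were also separate, though the fall ran from 49.3% of the flow-through level in mouse 4 to 74.1% in mouse 2. The difference on the log2 scale came to -0.69 ± 0.12 (SE), and its limma adjusted p was 0.00514.

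Snhg3 was the least certain of the members. It was at 53.1, 22.4, 40.0 and 26.3 FPKM in the flow-through and at 24.5, 14.5, 13.2 and 15.5 FPKM in IL-18Rα-hi cells. Flow-through replicates 1 and 3 were high, and IL-18Rα-hi replicate 1 exceeded flow-through replicate 2. Within each mouse the IL-18Rα-hi level was nevertheless the lower, at 33.1% to 65.0% of the flow-through. The log2 fold change of -0.98 ± 0.28 (SE; 95% interval -1.63 to -0.33) passed with a limma adjusted p of 0.0343, and at 0.00319 with the replicate block, which compares libraries within a mouse. Without flow-through replicate 1, the library low in Cd8a, the limma adjusted p was 0.0541, and it was 0.0936, 0.0897, 0.0893 and 0.0834 without flow-through replicate 3 and IL-18Rα-hi replicates 2, 3 and 4.

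Snhg3 also shares most of its locus. It overlaps Rcc1, the exchange factor of the nuclear transport GTPase Ran, by 5592 bases on the same strand, and reads could be divided between them by estimation only. Rcc1 was at 90.5, 48.5, 79.1 and 49.8 FPKM in the flow-through and at 64.3, 53.0, 58.3 and 44.2 FPKM in IL-18Rα-hi cells, with flow-through replicates 1 and 3 high as for Snhg3 and a log2 fold change of -0.24 (limma adjusted p = 0.435). Gm17300, a non-coding gene on the other strand of Snhg3, was at 6.26 to 9.66 FPKM in the flow-through and 3.32 to 4.97 FPKM in IL-18Rα-hi cells (log2 fold change -0.72, limma adjusted p = 0.0104). The strand setting of the estimation was not named in the sources used here, beyond the statement that other options were left at their defaults. The values of Gm17300 and Snhg3 are therefore uncertain where they overlap. The introns of Snhg3 held the only snoRNA entries of the members above 0. Snora73b was listed at 32.3, 0, 34.6 and 23.9 FPKM in the flow-through and at 8.03, 17.4, 17.9 and 14.9 FPKM in IL-18Rα-hi cells, and Snora73a at 13.9, 4.42, 4.34 and 9.60 FPKM and at 4.02, 0, 8.95 and 0 FPKM. Both overlapped between the fractions, and fragments of unspliced host RNA cannot be told apart from them.

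Snhg12, the host of both classes of guide, had the largest fall. It was at 87.9, 76.3, 96.0 and 109.1 FPKM in the flow-through and at 39.2, 41.3, 45.7 and 40.9 FPKM in IL-18Rα-hi cells. The IL-18Rα-hi libraries lay close together at 45.2% of the flow-through mean, and the groups were far from overlapping. On the log2 scale the fold change was -1.12 ± 0.11 (SE; 95% interval -1.37 to -0.86; limma adjusted p = 0.000709).

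All 8 members thus passed the test as lower, where 13.7% of the 12166 genes tested were called lower (1664) and 14.1% higher (1720). With the replicate block, 2763 genes (22.7%) were lower and 2705 higher, and again all 8 members were lower. The groups did not overlap for 7 of the 8, against 15.9% of all genes without overlap in this direction. For each of the 7 the exact permutation test, two-sided and over all 70 ways to arrange the libraries, gave p = 0.0286, the smallest it can give. This p follows from the lack of overlap alone, and the test leaves the pairing by mouse aside. For Snhg3 the exact permutation p was 0.0571. The median log2 fold change of the members was -0.87 and that of all genes tested was -0.018. Without flow-through replicate 1 the median of the members was -0.76, and 7 of 8 were called, beside 13.1% of all genes.

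Ratios between members within a library bear on whether they fell by the same amount. Of 28 pairs, 5 had ratios that did not overlap between the fractions (Gas5 to Snhg6, Gas5 to Snhg8, Snhg6 to Snhg12, Snhg8 to Snhg12 and Snhg12 to Snhg15), each with an exact permutation p of 0.0286. Adjusted over the 28 pairs, the smallest p was 0.16 by the exact permutation test. That test leaves the pairing by mouse aside and, with 4 libraries against 4, is too coarse to tell whether the members fell by the same amount. The widest shift was that of Snhg6 over Snhg12, a log2 ratio of -0.20 in the flow-through and 0.46 in IL-18Rα-hi cells.

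Ribosomal protein genes, with which many hosts share the TOP start, were lower too, but by less. Of 76 with an entry, 74 were called lower and none higher, where 13.7% of all genes tested were lower. With 1 library left out, 57 to 74 of the 76 were called lower. The median log2 fold change of the 76 was -0.42, with the largest fall in Rplp1, at -0.62. No ribosomal protein fell as far as Gas5, Snhg1, Snhg3, Snhg5, Snhg8, Snhg12 or Snhg15, whereas 21 of the 76 fell further than Snhg6. To test the members against this fall, the log2 values were shifted so that the mean of the ribosomal proteins was equal in all libraries, a scaling chosen after the data had been seen, and the whole table was fitted again. It moved the median of all genes from -0.018 to 0.40, and 2.34% of genes were then called lower. On that scale Snhg12 was lower by -0.70 ± 0.12, Gas5 by -0.57 ± 0.08, Snhg1 by -0.49 ± 0.11, Snhg5 by -0.41 ± 0.15 and Snhg8 by -0.25 ± 0.08 on the log2 scale (SE; limma adjusted p = 0.00123, 0.000595, 0.0049, 0.0449 and 0.0207). The remaining members did not pass: Snhg3 was at -0.57 ± 0.28, Snhg15 at -0.28 ± 0.13 and Snhg6 at -0.056 ± 0.09 (limma adjusted p = 0.112, 0.105 and 0.625). With the replicate block on the same scale, 4.56% of all genes were called lower, and Snhg3 joined the called members (limma adjusted p = 0.0133), while Snhg15 and Snhg6 did not (0.0782 and 0.56).

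**Figure D3:**
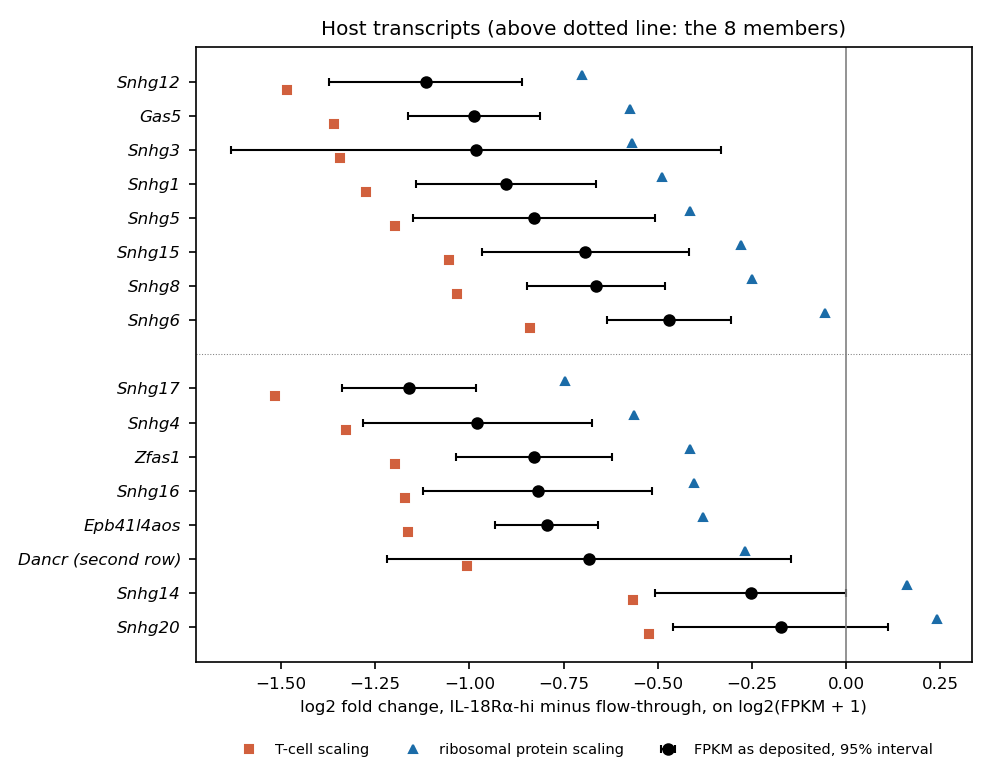
Log2 fold change on log2(FPKM + 1) of the 8 members, above the dotted line, and of the other tested non-coding hosts, below it: circles are FPKM as deposited with 95% intervals, squares T-cell scaling and triangles ribosomal protein scaling. All members lie below 0 on the 3 scales, from -1.48 (Snhg12, T-cell scaling) to -0.056 (Snhg6, ribosomal protein scaling), while Snhg14 and Snhg20 turn to the other side with ribosomal protein scaling.

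Scaling each library to its CD8 T-cell markers instead moved the median of all genes to -0.35 and the members to between -0.84 (Snhg6) and -1.48 (Snhg12). It divided flow-through replicate 1, the library low in Cd8a, by 0.581 and the others by 0.911 to 1.18. The scaling was not run without that library. On that scale 7 of the 8 members were called lower, beside 11.8% of all genes, and Snhg3 was at -1.34 (limma adjusted p = 0.0502). With the replicate block as well, all 8 were called, beside 21.7% of all genes.

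Other non-coding snoRNA hosts were taken from a list of 13, of which 12 had an entry and 7 passed the filter on level, with Dancr counted by the first of its entries, which did not pass. Of these 7, 5 were lower and none higher, with a median log2 fold change of -0.82. Snhg17 was at 32.1 to 35.7 FPKM in the flow-through and 13.9 to 16.6 FPKM in IL-18Rα-hi cells, and its fold change of -1.16 ± 0.08 on the log2 scale (SE; limma adjusted p = 0.0002) was larger than that of any member. Snhg4 fell by 0.98 on the log2 scale, Zfas1 by 0.83, Snhg16 by 0.82 and Epb41l4aos by 0.80 (limma adjusted p = 0.00203, 0.00101, 0.0041 and 0.000253). None of the 5 overlapped between the fractions, where 15.9% of all genes did not overlap in this direction. Each of the 5 was lower in 4 of 4 mice. Snhg14, which was not called, also had no overlap and was lower in 4 of 4 mice. Each of the 5 called hosts was also lower on the scale of the ribosomal proteins.

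The remaining hosts of that list did not pass or could not be read. Snhg14 was at 4.69 to 5.67 FPKM in the flow-through and 3.41 to 4.66 FPKM in IL-18Rα-hi cells and did not pass (log2 fold change -0.25, limma adjusted p = 0.12). Snhg20 had overlapping groups, with 13.5 to 18.4 FPKM and 11.1 to 14.8 FPKM (log2 fold change -0.17, 95% interval -0.46 to 0.11; limma adjusted p = 0.324). Both turned positive with ribosomal protein scaling, Snhg14 at 0.16 and Snhg20 at 0.24, and with the replicate block on that scale Snhg20 passed as higher (limma adjusted p = 0.0375). Snhg7 and Snhg9 were listed at 0 in all libraries, Snhg11 and Snhg18 were under 0.2 FPKM, and Snhg10 was not analysed here. Dancr had 2 entries, the first at 0.26 to 0.63 FPKM in the flow-through and under 0.2 FPKM in IL-18Rα-hi cells, and the second at 6.68 to 8.83 FPKM and 3.09 to 7.90 FPKM (log2 fold change -0.68, limma adjusted p = 0.0605, and 0.0182 with the replicate block).

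Other genes that hold a snoRNA moved in both directions. In all, 168 tested genes hold a snoRNA in an intron and are neither ribosomal proteins nor listed non-coding hosts. Of these, 44 (26.2%) were lower and 16 were higher, where 13.7% of all genes tested were lower and 14.1% higher. The median log2 fold change of the 168 was -0.17. With 1 library left out, 26 to 50 of the 168 were lower and 9 to 17 higher, the fewest without IL-18Rα-hi replicate 2. Among ribosomal proteins, the 29 with an intronic snoRNA had a median of -0.42 and the 47 without one also had a median of -0.42. The difference between these groups of genes was not tested.

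Of the 8 core proteins that bind snoRNAs, 7 were called lower. All 4 core proteins of H/ACA particles were called, with Gar1 at -0.87, Nop10 at -0.72, Dkc1, the pseudouridine synthase dyskerin, at -0.68 and Nhp2 at -0.65 on the log2 scale (limma adjusted p = 0.00856, 0.00691, 0.0118 and 0.0432). Of the 4 core proteins of C/D particles, Nop56 was at -0.84, Nop58 at -0.74 and Fbl, the methyltransferase fibrillarin, at -0.67 (limma adjusted p = 0.00421, 0.0121 and 0.00852). Snu13 was at -0.37 and did not pass (limma adjusted p = 0.0546), but did with the replicate block (0.00556). With 1 library left out, 6 to 8 of these 8 core proteins were called. The count was 6 without flow-through replicate 1 or 3 or any single IL-18Rα-hi replicate. With ribosomal protein scaling, Nop56 alone was called (limma adjusted p = 0.0369), and with the block on that scale 3 were, Gar1, Nop56 and Nop58. Nhp2 also lost its call with TPM, median and T-cell scaling and without the filter on level. Of 10 assembly factors, 6 were lower, led by Naf1 at -0.85, Nolc1 at -0.81 and Ruvbl1 at -0.72, and this count fell to 2 without flow-through replicate 3, IL-18Rα-hi replicate 2 or IL-18Rα-hi replicate 4.

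Other lists held genes that share the TOP start outside the ribosome or are known to act on such transcripts, and their counts are read beside the 13.7% of all genes called lower. Of 16 translation factors and related genes, 11 were lower, led by Npm1 at -0.81, Eef1g at -0.64 and Hnrnpa1 at -0.58, with a median of -0.35. Of 10 nonsense-mediated decay factors, Upf3b (-0.34) and Smg9 (-0.26) were called lower, with a median of -0.10, and both turned positive with ribosomal protein scaling, at 0.074 and 0.15. Leaving out 1 library gave 0 to 2 calls in that list, the 0 being without IL-18Rα-hi replicate 2. Of 12 genes of mTOR signaling and TOP regulation, 3 were lower, Eif4ebp1 (-0.82), Mlst8 (-0.33) and Larp1 (-0.31), with a median of -0.09. The last 2 turned positive with ribosomal protein scaling, at 0.088 and 0.11, and none of the 3 calls held without IL-18Rα-hi replicate 2 or 4, while leaving out any other library kept 1 to 3 calls. Of 8 genes of the glucocorticoid receptor and its targets, Fkbp5 was higher (0.83, limma adjusted p = 0.00181, and 0.0745 with T-cell scaling) and Klf9 lower (-0.77, limma adjusted p = 0.0117), and the receptor Nr3c1 was at 0.11 (limma adjusted p = 0.481).

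**Figure D4:**
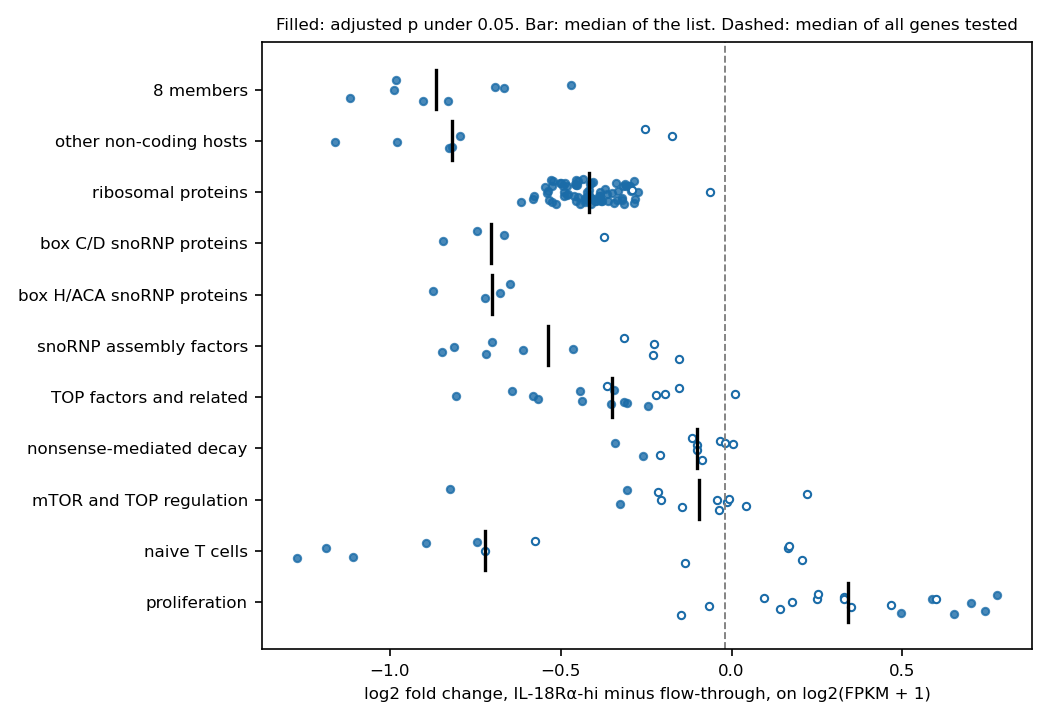
Log2 fold change of each tested gene by list, with filled points for an adjusted p under 0.05, black bars for the median of the list and a dashed line for the median of all genes tested (-0.018). The members (median -0.87) and the other non-coding hosts (-0.82) lie furthest left of the lists plotted, followed by naive T-cell genes (-0.72), the snoRNA-binding core proteins (-0.71 and -0.70), their assembly factors (-0.54) and the ribosomal proteins (-0.42).

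T-cell state genes are given beside the hosts because some of them differed between the fractions. Their counts are read beside the 13.7% of all genes tested called lower and the 14.1% called higher. Of 11 naive T-cell genes, 5 were lower, led by Ccr7 at -1.27, Dapl1 at -1.19 and Bach2 at -1.11, and 8 were lower without flow-through replicate 1. Leaving out any other single library gave 3. Of 18 proliferation genes, 6 were higher and none lower, led by Mki67 at 0.78, Top2a at 0.74 and Birc5 at 0.70. This count was 12 with the replicate block, where 2705 of all 12166 genes tested were higher. It was 10 without flow-through replicate 1, 2 to 5 without any other single library and 0 with T-cell scaling. The part of these state genes in the host values was not tested.

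The genes whose log2(FPKM + 1) over the 8 libraries followed the mean of the members most closely were Mettl8, Rplp1, Dus3l, Kansl2, Tfap4, Nob1, Tsr2, Nsun5, Kat2a and Qdpr, with Pearson r of 0.994 for Mettl8 and 0.99 for Qdpr among the 9321 genes whose mean was 5 FPKM or more. Rplp1 is a ribosomal stalk protein, Kansl2 holds a snoRNA in an intron, Nob1 and Tsr2 act in the making of the small ribosomal subunit, and Nsun5 and Dus3l modify RNA. Of the 100 closest genes, 13 were ribosomal proteins, which are 0.815% of the 9321, and 3 were other listed non-coding hosts, which are 0.0644%. The 8 points are 4 pairs from 4 mice and most of the likeness is the difference between the fractions, so r is a description.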

How the data were processed

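RNA of 8 libraries (4 IL-18Rα-hi-enriched, 4 flow-through) was made by the authors into stranded poly(A) libraries and sequenced as paired ends. Low-quality reads were removed, the rest mapped to mm10 with TopHat, and the deposited FPKM values were estimated by the authors with Cufflinks 2.1.1, with correction for multiply mapped reads and fragment bias. The other options were left at their defaults. The strand setting was not named beyond that statement, and the annotation release was not given in the sources used here. Cufflinks estimates are not whole reads, so no depth, count model or counting interval was derived. The precision is that of 4 libraries per fraction, each a separate mouse.

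Groups and numbers came from the sample labels. The fractions were compared on log2(FPKM + 1) by a two-sided limma fit (3.58.1, under R 4.3.3) with a variance trend and no block. It took in the 12166 genes whose mean reached 1 FPKM, with Benjamini-Hochberg adjusted p-values over all of them and a threshold of 0.05. A fold change on log2(FPKM + 1) understates that of low genes. The fit was checked on simulated data with known changes. Each mouse gave both fractions, but the labels do not say that equal numbers mark one mouse. This was assumed, since deviations from the group means correlated in all 4 pairs of equal number (r = 0.66, 0.59, 0.31 and 0.47), although flow-through 2 and IL-18Rα-hi 4 also reached 0.41.

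The alternatives were other pseudocounts, filters, scalings and variance models, the replicate block, and each library left out. Ribosomal protein scaling and the combinations of the block with a scaling were added after the data had been seen. The genes named were the 8 members, other listed non-coding hosts, genes overlapping or facing a member start within 1000 bases, the 10 genes most like the members, the 8 core snoRNA-binding proteins, and the 3 largest changes called in each other list. The members and lists were chosen with earlier results of these data known. Genes were matched by name or identifier, Snhg16 by a RefSeq synonym. Rpl13 was not analysed here. Loci and transcript starts were taken from GENCODE M21 and promoters from RefSeq.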

Additional observations from a re-analysis of the deposited data

Results flagged for a closer look

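A single library stood apart from the other 3 of its fraction, by the gap to the nearest of them over the range, for 3 of the 122 groups of 4 values examined, and chance flags about 1 in 20 groups. No member was among them. Snhg20 was at 18.35 FPKM in flow-through replicate 4, while replicates 1 to 3 lay between 13.5 and 14.2 FPKM. Rplp1 was at 5953 FPKM in flow-through replicate 2, below 6670 to 6796 FPKM in the others. Rpl36a was at 1193 FPKM in IL-18Rα-hi replicate 1, above 1062 to 1063 FPKM in the others.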

How the results depend on the processing

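Each member was lower than the flow-through under every alternative run. Snhg3 lost its call without the filter on level (-0.98, limma adjusted p = 0.0692), with T-cell scaling (-1.34) and with ribosomal protein scaling (-0.57), and it ranged from -1.17 to -0.77 with 1 library left out. Snhg6 (-0.056) and Snhg15 (-0.28) lost theirs with ribosomal protein scaling, with or without the replicate block. The count of members called was 7 to 8 with 1 library left out and 5 with ribosomal protein scaling. Their median was -1.24 with T-cell scaling and -0.45 with ribosomal protein scaling, with or without the block, and -0.95 to -0.76 with 1 library left out. The cause was not tested.

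Over all genes, the replicate block gave 2763 lower and 2705 higher, T-cell scaling 550 higher (2641 lower and 630 higher with the block), and ribosomal protein scaling 285 lower and 6454 higher (555 and 7550 with the block). With 1 library left out, 940 to 1781 were lower and 1124 to 1802 higher. On FPKM as deposited the block changed no call of a member, and among the other hosts it added the second Dancr entry. With T-cell or ribosomal protein scaling it restored the call of Snhg3 (limma adjusted p = 0.0133 with the latter).

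With ribosomal protein scaling, with or without the block, the signs of Snhg14 (0.16), Snhg20 (0.24), Snu13 (0.040), Upf3b (0.074), Smg9 (0.15), Mlst8 (0.088), Larp1 (0.11), Rcc1 (0.17), Slc3a2 (0.26) and Zbtb37 (0.35) turned, since these fell by less than the ribosomal proteins. Zbtb37 ran from -0.15 to 0.074 with 1 library left out, turning without flow-through replicate 4. Nhp2 lost its call in 6 of the 8 fits with 1 library left out.

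Levels near 1 FPKM, loci shared by genes, and 4 pairs of libraries set the limits: an exact sign test within 4 pairs cannot go below p = 0.125. Mature snoRNAs were not measured.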
